A study of Mus musculus with 40 samples.

Results

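Livers that had first been injured with DDC and then fed HFD were set against livers that had received neither, to show the joint difference that a DDC history and HFD leave without ethanol. The comparison was chosen by the group names in the library titles alone: 6 DDC+HFD libraries and 5 Control 28D libraries, 11 of the 40 libraries of the series. DDC is 3,5-diethoxycarbonyl-1,4-dihydrocollidine, a compound given in the diet at 0.05% w/w. It blocks the last step of heme synthesis, so that porphyrins build up and plug small bile ducts, and in mice it is a standard way to provoke a ductular reaction (expansion of bile duct-like cells), macrophage recruitment and scarring around the ducts. HFD is not spelled out in the labels, and neither is BD, the diet that stands in the same place for the controls.

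All animals were adult male C57BL/6 mice. DDC+HFD mice received DDC as treatment 1 and HFD as treatment 2. DDC+Cont mice (5 libraries) received DDC and then BD. HFD mice (6 libraries) received BD and then HFD. Control 28D mice received BD both times. Treatment 2 lasted up to 28 days in the protocol, and the gastric tube is described there for ethanol only, so how HFD was given is not stated. DDC and HFD both differ between DDC+HFD and Control 28D. In this comparison their parts cannot be told apart, so DDC+Cont and HFD values are given beside it where they bear on a gene. Each library is taken as a separate animal because each carries its own number, and the p-values measure only spread between libraries. In the main gene fit that spread was estimated over all 40 libraries of the 8 groups together, not over the 11 compared alone.

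Messenger RNA of whole liver was counted per gene. Between 7249760 and 19092083 reads lay on genes in the DDC+HFD libraries, against 10225087 to 18691019 in the Control 28D libraries. Values are normalised read counts in CPM, read counts scaled to the library's reads on genes with trimmed-mean (TMM) factors. The hepatocyte marker Alb, serum albumin, stood at 22400 to 61630 CPM in DDC+HFD and 33810 to 71920 CPM in Control 28D livers. In bulk tissue, fewer cells of a type and less RNA per cell cannot be told apart.

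Some libraries stood apart from the rest of their group. The summed level of 10 pancreatic enzyme transcripts was 5975, 2284, 1191 and 342 CPM in DDC+HFD replicates 30, 33, 36 and 37, and 3.23 and 1.33 CPM in replicates 32 and 35. In Control 28D libraries it was 1.22 to 14.1 CPM (exact permutation test of the log2 values, two-sided, p = 0.052, adjusted p = 0.185 over 8 library measures). A clock score, the mean log2(CPM + 1) of Arntl, Npas2 and Clock minus that of Dbp, Tef, Hlf and Per3, ran from -0.63 to 1.84 in DDC+HFD and from 1.65 to 2.24 in Control 28D libraries (exact permutation test, two-sided, p = 0.0216, adjusted p = 0.173). It was lowest in DDC+HFD replicates 32, 33 and 37. Of 15 pancreas and fat genes 11 were called higher. None was when Control 28D replicate 9, 10, 11 or 13 or DDC+HFD replicate 30 was left out, 1 without DDC+HFD replicate 33 and 2 without Control 28D replicate 12. The part of these library differences in the results was not tested beyond the fits named here. Control 28D replicate 12 had 630 CPM of the fatty acid synthase gene Fasn, against 3428 to 4195 CPM in the other controls, and 3320 CPM of Pck1, the rate-limiting gluconeogenic enzyme, against 470 to 956 CPM. DDC+HFD replicate 32 had 3375 CPM of Fasn, against 646 to 797 CPM in its group.

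**Figure D1:**
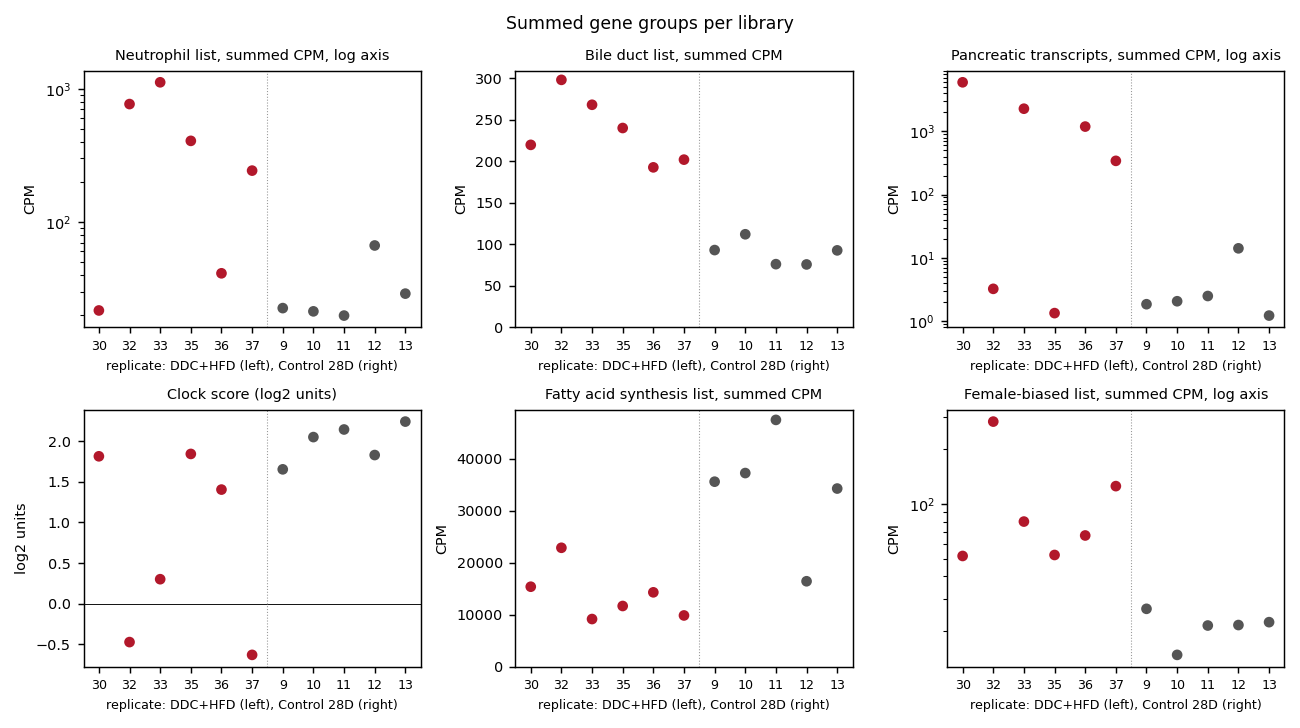
Summed levels per library of the neutrophil, bile duct, fatty acid synthesis and female-biased gene lists and of 10 pancreatic enzyme transcripts (CPM), with the clock score (log2 units); each point is 1 library, DDC+HFD on the left and Control 28D on the right, and 3 panels have a log axis. The bile duct and female-biased sums do not overlap between groups, while DDC+HFD replicates 30 and 36 lie within the control range for neutrophil genes.

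The joint difference was broad. In edgeR's quasi-likelihood test with Benjamini-Hochberg adjustment over 14355 genes, 1568 genes were higher in DDC+HFD livers (10.9% of those tested) and 1202 were lower (8.37%). Of the called genes, 693 of those higher and 145 of those lower differed by at least 2-fold, so the large changes were mostly increases. The median log2 fold change over all tested genes was 0.01. For 7.42% of tested genes the libraries of both groups did not overlap. Without Control 28D replicate 11, 1113 genes were higher and 737 lower, and in the libraries of the sequencing lanes that both groups share 526 were higher and 302 lower.

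**Figure D2:**
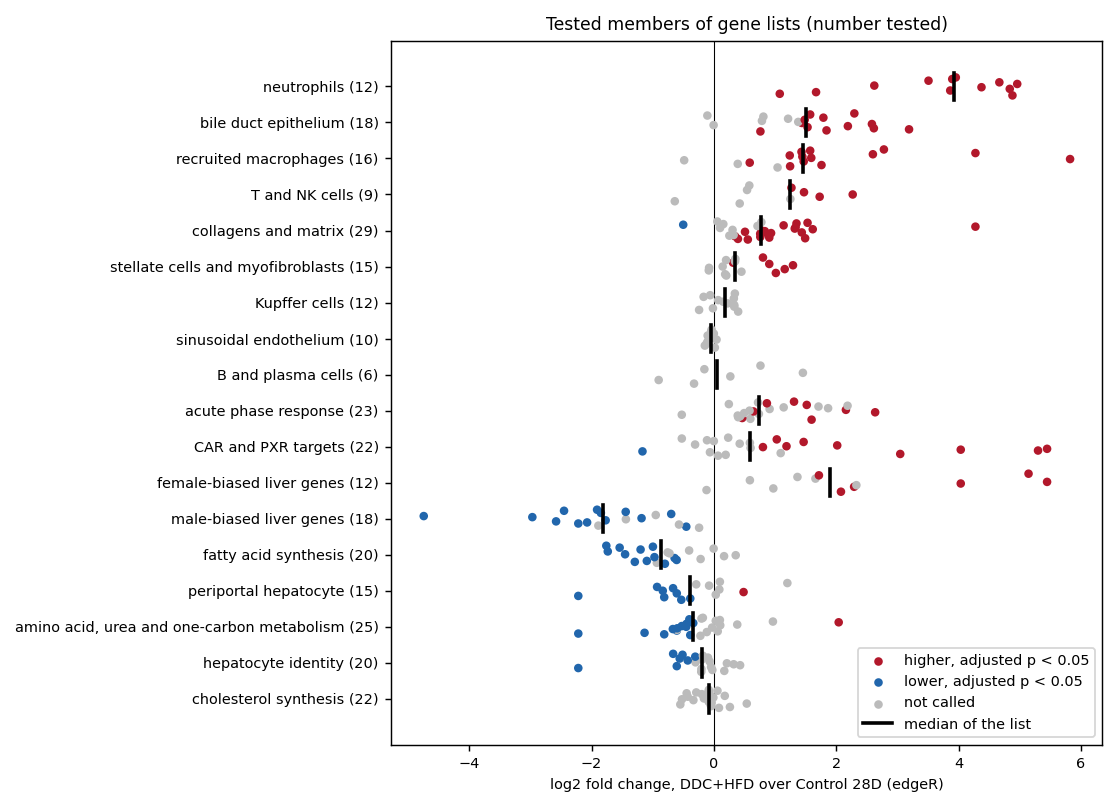
Log2 fold change of DDC+HFD over Control 28D for each tested member of 18 gene lists; each point is a gene, coloured by its call at an adjusted p under 0.05, and the black bar is the list's median. Neutrophil, bile duct and macrophage medians lie right of 0 at 3.92, 1.51 and 1.45, and the male-biased list lies left of it at -1.81.

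Genes of recruited macrophages rose while those of resident Kupffer cells did not pass the test in either direction. Of 16 tested genes of recruited, lipid-handling macrophages, 13 were higher and none lower, with a median log2 fold change of 1.45. Of 12 Kupffer cell genes, none was called, and the median was 0.19. Gpnmb, a membrane glycoprotein of macrophages that engulf lipid and debris (mm10 chr6:49036546-49070929), had a lowest, median and highest level of 8.39, 9.90 and 18.2 CPM in DDC+HFD livers, against 0.123, 0.411, 0.116, 0.0911 and 0.359 CPM in the 5 Control 28D livers. The groups were far apart, with a log2 fold change of 5.82 (SE 0.87, adjusted p = 2.27e-05).

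Gpnmb was at a similar level in DDC+Cont livers, which held 8.69 to 16.4 CPM, and lower in HFD livers, at 0.227 to 1.58 CPM. DDC+HFD differed from HFD by 3.95 log2 units (edgeR adjusted p = 1.14e-04), while its difference from DDC+Cont was -0.01 (SE 0.50, adjusted p = 0.997). Trem2, the lipid-sensing receptor of the same macrophages, followed the same order: 2.81 to 4.73 CPM in DDC+HFD, 1.66 to 5.51 in DDC+Cont, 0.631 to 1.46 in HFD and 0.273 to 0.677 in Control 28D livers. Its log2 fold change over Control 28D was 2.78 (SE 0.43, adjusted p = 2.76e-05). Cx3cr1, the fractalkine receptor of monocyte-derived cells, averaged 4.84 ± 1.02 CPM in DDC+HFD livers and 1.76 ± 0.36 CPM in Control 28D livers (SD, n = 6 and 5). Its ligand Cx3cl1 averaged 2.37 ± 0.33 CPM in DDC+HFD and 0.621 ± 0.23 CPM in Control 28D livers, and both rose (adjusted p = 3.32e-05 for Cx3cr1 and 2.39e-05 for Cx3cl1). Clec4f, a lectin of mouse Kupffer cells, averaged 193 ± 56 and 166 ± 22 CPM in DDC+HFD and Control 28D livers (adjusted p = 0.362). Without the libraries over 1000 CPM of pancreatic transcripts, which take out DDC+HFD replicates 30, 33 and 36, 6 of the 12 Kupffer genes were called higher.

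Bile duct genes rose together. Of 18 tested members, 12 were higher and none lower, and the median log2 fold change was 1.51. The summed level of the list was 193 to 298 CPM in DDC+HFD livers and 75.7 to 112 CPM in Control 28D livers, with no overlap. Epcam, the adhesion molecule that marks cholangiocytes and their progenitors (mm10 chr17:87635979-87651129), had a lowest, median and highest level of 2.92, 4.42 and 6.41 CPM in DDC+HFD livers, against 1.23, 1.13, 0.868, 0.820 and 0.861 CPM in Control 28D livers. Every DDC+HFD library was above every control, and the log2 fold change was 2.19 (SE 0.24, adjusted p = 1.17e-07).

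Epcam was also called above DDC+Cont, although the libraries of these groups overlapped. Over all genes 488 were called against DDC+Cont, 101 with only the groups compared and 15 in the shared lanes. Whether a named gene kept its call against DDC+Cont in the other fits was not examined. DDC+Cont livers held 2.03 to 3.88 CPM and HFD livers 0.861 to 1.42 CPM, and DDC+HFD exceeded DDC+Cont by 0.75 log2 units (adjusted p = 0.0357). Spp1, the secreted matricellular protein osteopontin made by duct cells and by macrophages, reached 110 to 196 CPM in DDC+HFD livers, 68.3 to 116 in DDC+Cont, 42.9 to 81.5 in HFD and 42.5 to 65.7 in Control 28D livers. It was higher than in Control 28D by 1.57 log2 units (adjusted p = 5.69e-07) and than in DDC+Cont by 0.62 (adjusted p = 0.0476). Itgb6, the subunit of the integrin that frees latent TGF-beta on injured epithelium, averaged 1.595 ± 0.637 CPM in DDC+HFD and 0.560 ± 0.21 CPM in DDC+Cont livers, and that difference also passed the test (1.48 log2 units, adjusted p = 0.0106). Tspan8, a tetraspanin of duct epithelium, rose by 2.29 log2 units over Control 28D (adjusted p = 1.84e-06), and its difference from DDC+Cont was 0.63 (SE 0.25, adjusted p = 0.16). The biliary keratin Krt19 averaged 3.78 ± 1.57 CPM in DDC+HFD and 1.40 ± 0.39 CPM in Control 28D livers (adjusted p = 0.00239). Sox9, the duct transcription factor, had a log2 fold change of -0.11 and was not called (adjusted p = 0.826).

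Most matrix genes were called higher in the fit of all libraries. Of 29 collagen and matrix genes, 20 were higher, 8 were not called and 1, Postn, was lower. Their median log2 fold change was 0.77. Leaving out single libraries gave 14 (without Control 28D replicate 9) to 21 higher. The count was also 14 without the libraries over 1000 CPM of pancreatic transcripts. In the lanes that both groups share it was 15. The summed level was 2848 to 3508 CPM in DDC+HFD and 2014 to 3360 CPM in Control 28D livers, so the groups overlapped. Thbs2, the matricellular protein thrombospondin 2, had a lowest, median and highest level of 8.94, 12.7 and 16.3 CPM in DDC+HFD livers, against 4.18, 4.22, 3.99, 5.29 and 4.38 CPM in Control 28D livers. The groups did not overlap (log2 fold change 1.53, SE 0.18, adjusted p = 4.31e-07). Col6a3, a chain of the microfibrillar collagen VI, reached 39.7 to 82.5 CPM in DDC+HFD, 42.3 to 70.3 in DDC+Cont, 19.7 to 39.4 in HFD and 19.7 to 22.4 CPM in Control 28D livers. It was 1.44 log2 units above Control 28D (adjusted p = 3.03e-05) and 1.14 above HFD (adjusted p = 3.39e-04), with a difference from DDC+Cont of 0.07 (SE 0.21, adjusted p = 0.9). Lum, a small proteoglycan of collagen fibrils, and Fbn1, the microfibril protein fibrillin 1, rose by 1.33 and 0.78 log2 units (adjusted p = 1.76e-05 and 3.50e-04).

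The calls for fibrillar collagens depended on single libraries. Col1a1 averaged 7.51 ± 2.80 CPM in DDC+HFD and 2.65 ± 0.99 CPM in Control 28D livers (log2 fold change 1.49, adjusted p = 0.0263). Leaving out Control 28D replicate 9, 10 or 11 or DDC+HFD replicate 35 ended that call, as did leaving out the libraries over 1000 CPM of pancreatic transcripts. Col3a1 passed narrowly (0.76, adjusted p = 0.0479) and lost its call in 14 of 22 other fits, among them that without these libraries (adjusted p = 0.094). Postn, the matricellular protein periostin, averaged 8.82 ± 2.22 CPM in DDC+HFD and 12.6 ± 0.78 CPM in Control 28D livers (adjusted p = 0.0487), and its call was lost in 15 of the 22, again also without these libraries (adjusted p = 0.307). Timp1, an inhibitor of matrix proteases, stood at 0.258 to 0.601 CPM in DDC+HFD and 0.0615 to 0.411 CPM in Control 28D livers and was not called.

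Stellate cell genes rose in part. Of 15 members, 6 were higher and none lower, with a median log2 fold change of 0.34. The called ones included the receptors for platelet-derived growth factor that stellate cells and portal fibroblasts carry. Pdgfra had a lowest, median and highest level of 34.2, 38.6 and 46.5 CPM in DDC+HFD livers, against 17.2, 13.4, 12.7, 19.7 and 16.9 CPM in Control 28D livers (log2 fold change 1.29, SE 0.15, adjusted p = 3.55e-07). Pdgfrb averaged 28.1 ± 4.9 CPM in DDC+HFD, 26.0 ± 2.8 in DDC+Cont, 14.8 ± 1.8 in HFD and 14.95 ± 1.45 CPM in Control 28D livers. The stellate globin Cygb and the stellate transcription factor Hand2 rose by 1.01 and 1.16 log2 units (adjusted p = 4.41e-06 and 1.23e-04). Acta2, the smooth muscle actin that marks contractile myofibroblasts, was not called, at 3.96 ± 1.77 CPM in DDC+HFD and 3.47 ± 0.88 CPM in Control 28D livers (adjusted p = 0.779). None of 10 sinusoidal endothelium genes was called, and their median was -0.04.

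**Figure D3:**
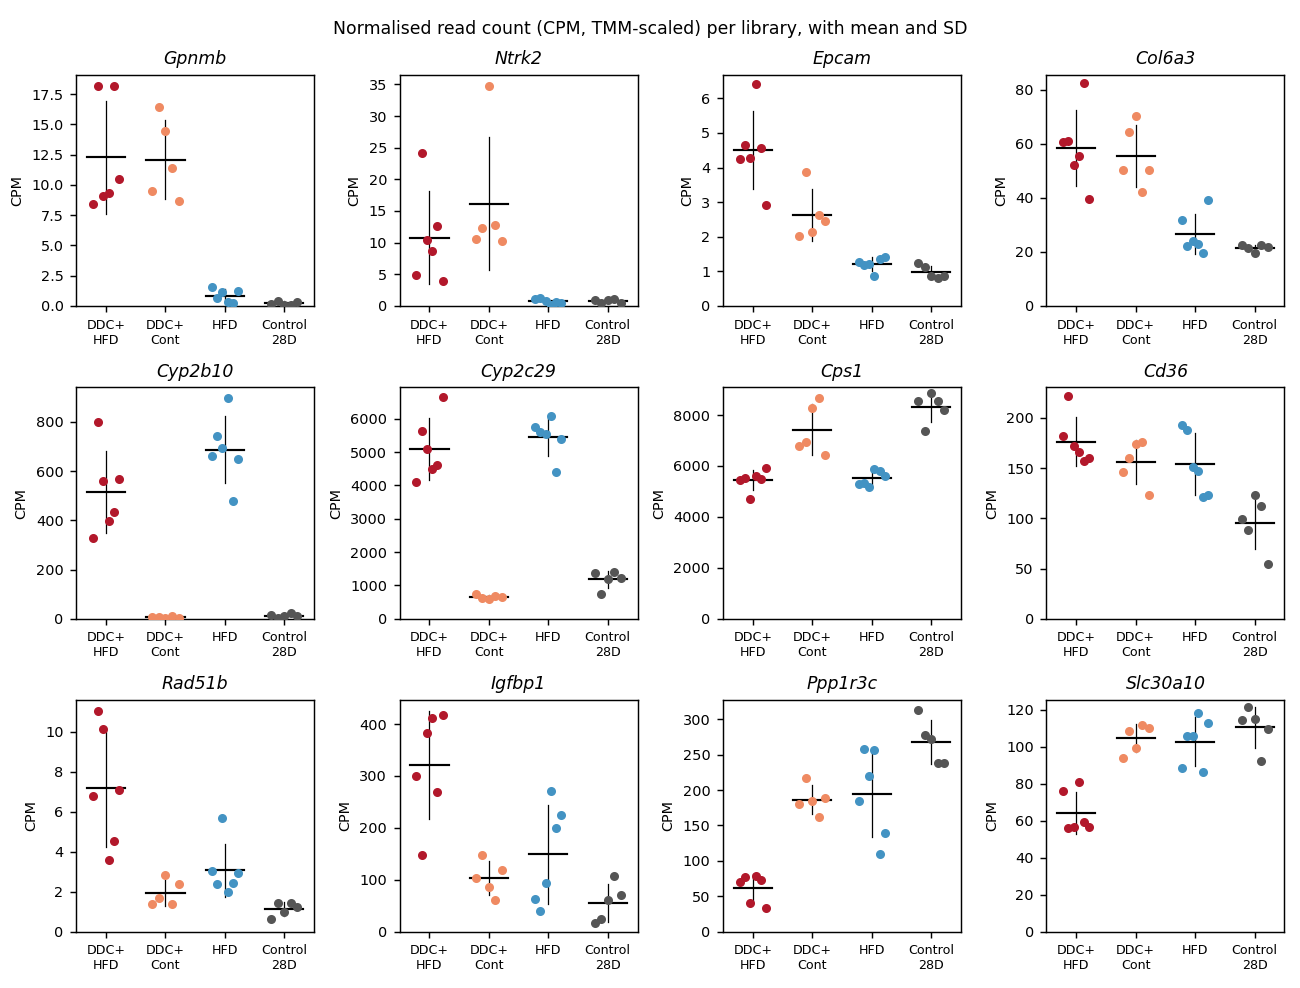
Levels of 12 genes in every DDC+HFD, DDC+Cont, HFD and Control 28D library (CPM, linear axes from 0); points are libraries, horizontal bars are group means and vertical bars are 1 SD. Gpnmb, Ntrk2 and Col6a3 are high in both DDC groups, Cyp2b10 and Cyp2c29 in both HFD groups, and Ppp1r3c stands apart in DDC+HFD livers, while 1 HFD library reaches into the DDC+HFD range of Rad51b.

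Neutrophil genes were higher in 4 of the 6 DDC+HFD animals. All 12 tested members were higher (median log2 fold change 3.92), yet no member separated the groups completely. In a fit of only the groups compared, 7 of 11 tested members were called higher. In the lanes that both groups share, 4 of 12 were (median 2.58). The summed level of the list was 769, 1120, 407 and 243 CPM in DDC+HFD replicates 32, 33, 35 and 37, and 21.6 and 41.1 CPM in replicates 30 and 36. Control 28D livers held 19.8 to 66.5 CPM. Mpo, the myeloperoxidase of granule-forming neutrophil precursors, stood at 31.4, 54.5, 19.2 and 8.36 CPM in those 4 DDC+HFD libraries and at 0.129 and 2.48 CPM in replicates 30 and 36, against 0.123 to 2.10 CPM in Control 28D livers. The fit gave a log2 fold change of 4.96 (SE 0.87, adjusted p = 1.65e-04), a value that averages over both kinds of library.

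For Mpo the fit also called DDC+HFD above both single treatments, though not every DDC+HFD library lay above them. Replicate 30, at 0.129 CPM, lay below every DDC+Cont and HFD library, and replicate 36, at 2.48 CPM, lay within the DDC+Cont range. Mpo reached 0.369 to 3.37 CPM in DDC+Cont and 0.227 to 2.14 CPM in HFD livers, and DDC+HFD exceeded DDC+Cont by 3.77 log2 units (adjusted p = 0.00629) and HFD by 4.26 (adjusted p = 3.00e-04). Elane, neutrophil elastase, and Mmp8, neutrophil collagenase, were also called above DDC+Cont, by 3.22 and 2.17 (adjusted p = 0.00189 and 0.0463). In replicate 30 both lay below every DDC+Cont library. S100a9, the calprotectin subunit of mature neutrophils, had a lowest, median and highest level of 7.87, 111 and 365 CPM in DDC+HFD livers and 6.08, 7.32 and 19.4 CPM in Control 28D livers, and rose by 3.95 log2 units (SE 0.74, adjusted p = 3.31e-04). The 2 low libraries, replicates 30 and 36, had 5975 and 1191 CPM of pancreatic transcripts. Replicate 33, the highest for neutrophil genes, had 2284 CPM. A link between these levels was not tested. Of 9 T and NK cell genes 4 were higher, among them the granzyme Gzmb at 0.452 to 1.65 CPM in DDC+HFD and 0.174 to 0.273 CPM in Control 28D livers (adjusted p = 3.98e-04). Of 6 B and plasma cell genes none was called.

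Acute phase and metal-binding genes varied with the same animals. Of 23 acute phase genes, 8 were higher and none lower (median log2 fold change 0.73). The summed level was 76740 to 139600 CPM in DDC+HFD replicates 32, 33, 35 and 37, and 46960 and 44450 CPM in replicates 30 and 36, against 43120 to 71500 CPM in Control 28D livers. That count depended on single libraries: it was 2 without DDC+HFD replicate 37, 3 without Control 28D replicate 9, 4 without Control 28D replicate 10, 5 without Control 28D replicate 11 or DDC+HFD replicate 33, and 13 without Control 28D replicate 12, the highest control. With the lane or the clock score as a term it was 5. The largest fold in the list was that of Il1rn, the secreted antagonist of the interleukin 1 receptor (mm10 chr2:24336853-24351494). It had a lowest, median and highest level of 6.21, 15.2 and 27.2 CPM in DDC+HFD livers, against 1.54, 2.67, 1.39, 4.65 and 3.16 CPM in Control 28D livers. Il1rn rose by 2.63 log2 units (SE 0.47, adjusted p = 1.78e-04), and it also exceeded both HFD (1.83, adjusted p = 0.00292) and DDC+Cont (1.85, adjusted p = 0.015). Apcs, serum amyloid P, averaged 454 ± 279 CPM in DDC+HFD and 150 ± 34 CPM in Control 28D livers (adjusted p = 0.0048). Lcn2, the iron-withholding protein lipocalin 2, was 95.7 to 1270 CPM in DDC+HFD and 55.0 to 493 CPM in Control 28D livers, and its call (adjusted p = 0.0476) was lost in 13 of 22 other fits.

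Mt1 and Mt2 encode metallothioneins, small cysteine-rich proteins that bind zinc and copper and are induced by metals, glucocorticoids and inflammation. Their neighbouring genes lie on chromosome 8, and their upstream windows are shown because both genes moved together. The windows come from RefSeq on GRCm38.p6, read on the plus strand 5′ to 3′ and ended before any exon of GENCODE vM21. Capitals mark each match to TGCNCNC on either strand. These letters are looser than the core of the metal response element, so a match need not be that core. They were picked after the values of these genes had been seen. Mt1 is shown for chr8:94178839-94179081 and Mt2 for chr8:94172368-94172617.
Mt1: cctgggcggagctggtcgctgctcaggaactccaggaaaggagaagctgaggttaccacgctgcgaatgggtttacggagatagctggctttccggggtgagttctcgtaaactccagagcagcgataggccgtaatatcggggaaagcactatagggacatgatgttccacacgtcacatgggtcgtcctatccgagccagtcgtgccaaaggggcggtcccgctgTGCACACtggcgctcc
Mt2: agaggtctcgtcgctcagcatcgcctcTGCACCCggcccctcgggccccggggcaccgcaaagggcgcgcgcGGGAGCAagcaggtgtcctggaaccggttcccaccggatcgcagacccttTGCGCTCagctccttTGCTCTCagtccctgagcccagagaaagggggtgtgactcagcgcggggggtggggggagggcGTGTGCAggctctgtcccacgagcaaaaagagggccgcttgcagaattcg
The Mt1 window held 1 match and the Mt2 window 5. Of all 32851 windows of 250 bases in the table, 44.4% held at least 1, and a match is a description of these letters only. The Mt2 window also held 1 match each to the antioxidant response core TGACNNNGC (10.2% of windows) and the AP-1 letters TGANTCA (6.75%), which overlap on the same bases, and the Mt1 window held neither.

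Mt1 stood at 67.9, 169, 386, 143, 63.6 and 649 CPM in DDC+HFD replicates 30, 32, 33, 35, 36 and 37, against 12.4, 15.7, 11.9, 99.2 and 13.4 CPM in the 5 Control 28D livers. Only Control 28D replicate 12 reached into the DDC+HFD range. Mt1 rose by 3.03 log2 units (SE 0.72, adjusted p = 0.00329) and Mt2 by 3.10 (SE 0.83, adjusted p = 0.00835). Both also exceeded HFD, by 3.31 and 3.85 (adjusted p = 0.00142 and 0.00173). Their differences from DDC+Cont, 2.07 and 2.30, did not pass (adjusted p = 0.0823 and 0.0966). In a fit of only the groups compared, neither call held (adjusted p = 0.0615 and 0.0938). In the other direction, Slc30a10, the manganese exporter of hepatocytes, had a lowest, median and highest level of 56.0, 58.0 and 81.0 CPM in DDC+HFD livers, against 115, 122, 115, 92.3 and 109 CPM in Control 28D livers. It was lower than Control 28D by a log2 fold change of -0.78, than HFD by -0.68 and than DDC+Cont by -0.70 (adjusted p = 1.86e-04, 0.001 and 0.00501).

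Some drug-metabolising cytochrome P450 genes of the CAR pathway rose. CAR (Nr1i3) and PXR are nuclear receptors that switch on P450 enzymes when the liver meets foreign compounds, and Cyp2b10 is the classic CAR target in mice. Of 22 tested CAR and PXR targets, 9 were higher and 1, the carboxylesterase Ces2c, was lower, with a median log2 fold change of 0.59. Cyp2b10 (mm10 chr7:25897620-25926624) had a lowest, median and highest level of 328, 498 and 799 CPM in DDC+HFD livers, against 15.4, 3.50, 11.8, 25.2 and 9.55 CPM in Control 28D livers. The log2 fold change was 5.30 (SE 0.61, adjusted p = 5.69e-07).

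Cyp2b10 was at a similar level in HFD livers and far lower in DDC+Cont livers. HFD livers held 476 to 895 CPM and DDC+Cont livers 3.30 to 9.69 CPM. DDC+HFD exceeded DDC+Cont by 6.12 log2 units (adjusted p = 3.22e-07), and its difference from HFD was -0.41 (SE 0.46, adjusted p = 0.592). Cyp2c29, a pericentral P450 that is also CAR-responsive, showed the same pattern at 4100 to 6636 CPM in DDC+HFD, 580 to 747 in DDC+Cont, 4402 to 6081 in HFD and 753 to 1404 CPM in Control 28D livers (2.10 log2 units over Control 28D, adjusted p = 1.02e-08). Cyp2c55 was lower in DDC+HFD than in HFD livers. It averaged 23.2 ± 6.7 CPM in DDC+HFD, 2.56 ± 0.77 in DDC+Cont, 66.1 ± 20.0 in HFD and 5.72 ± 2.39 CPM in Control 28D livers, and DDC+HFD lay below HFD by a log2 fold change of -1.51 (SE 0.36, adjusted p = 0.00565). Cyp2b9 was 1.89 to 36.0 CPM in DDC+HFD and 0.185 to 0.637 CPM in Control 28D livers (log2 fold change 5.44, adjusted p = 5.95e-04), a spread of libraries far wider than that of Cyp2b10. Cyp3a11, a PXR target, was not called (2116 ± 753 CPM in DDC+HFD and 2622 ± 1619 CPM in Control 28D livers, adjusted p = 0.474). These P450 families hold near-identical copies, so reads could be lost or shared between members.

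Genes of fatty acid synthesis fell. Of 20 members, 12 were lower and none higher, with a median log2 fold change of -0.87. Scd1, the desaturase that makes oleate from stearate, had a lowest, median and highest level of 3895, 7985 and 11380 CPM in DDC+HFD livers, against 21390, 23980, 32350, 11770 and 22980 CPM in Control 28D livers. The groups did not overlap (log2 fold change -1.54, SE 0.36, adjusted p = 0.00268), and DDC+HFD was also below DDC+Cont (-1.45, adjusted p = 0.0189). HFD livers held 7841 to 15110 CPM of Scd1, a range that overlaps that of DDC+HFD livers. Agpat2, which adds the second fatty acid in triglyceride synthesis, averaged 190 ± 16 CPM in DDC+HFD, 270 ± 17 in DDC+Cont, 237 ± 16 in HFD and 289 ± 44 CPM in Control 28D livers. It was below all of the other groups (adjusted p = 2.35e-04 against Control 28D, 0.0445 against HFD and 0.00902 against DDC+Cont). Me1, the malic enzyme that supplies NADPH, fell by 1.74 log2 units (adjusted p = 2.17e-04).

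Fasn had an exception in each group. It stood at 685, 3375, 783, 757, 797 and 646 CPM in DDC+HFD replicates 30, 32, 33, 35, 36 and 37, against 4195, 3636, 4181, 630 and 3428 CPM in Control 28D livers. Replicate 32 of DDC+HFD lay just below the other 4 controls, and replicate 12 of Control 28D lay below all 6 DDC+HFD libraries. Fasn was called (log2 fold change -1.45, SE 0.48, adjusted p = 0.0294) and lost that call in 11 of 22 other fits, among them that without the libraries over 1000 CPM of pancreatic transcripts (adjusted p = 0.271). In that fit 5 of the 20 list members were called lower, and 5 were in a fit of only the groups compared. Leaving out single libraries gave 6 (without Control 28D replicate 11) to 15 (without Control 28D replicate 12 or DDC+HFD replicate 32). None of 22 cholesterol synthesis genes was called (median -0.09).

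Genes of fatty acid use moved in both directions. Of 26 genes of fatty acid oxidation and PPAR-alpha targets, 4 were higher and 6 lower. Over all tested genes 10.9% were higher and 8.37% lower. Without the libraries over 1000 CPM of pancreatic transcripts, 2 of the 26 were higher and 10 lower. Angptl4, the secreted inhibitor of lipoprotein lipase, stood at 135, 15.1, 66.8, 86.6, 177 and 135 CPM in DDC+HFD replicates 30, 32, 33, 35, 36 and 37, against 19.4, 21.1, 16.1, 54.0 and 14.7 CPM in Control 28D livers. All but replicate 32 exceeded every control (log2 fold change 2.04, SE 0.43, adjusted p = 0.00122). Angptl4 also exceeded HFD by 1.27 and DDC+Cont by 2.93 (adjusted p = 0.0281 and 3.22e-04). Cpt1a, which admits fatty acids to mitochondria, averaged 438 ± 95 CPM in DDC+HFD and 284 ± 50 CPM in Control 28D livers (adjusted p = 4.22e-04), a call that was lost without the libraries over 1000 CPM of pancreatic transcripts (adjusted p = 0.053). Pdk4, the kinase that shuts off pyruvate oxidation, fell by 1.33 log2 units (adjusted p = 4.54e-04), and the peroxisomal enzyme Ehhadh fell by 0.73 (adjusted p = 8.38e-04). Cd36, the fatty acid transporter, was 157 to 222 CPM in DDC+HFD, 123 to 175 in DDC+Cont, 121 to 193 in HFD and 54.4 to 123 CPM in Control 28D livers. It rose by 0.89 log2 units over Control 28D (adjusted p = 6.71e-05), and the fit called DDC+Cont and HFD above the same controls too (0.71 and 0.69, adjusted p = 0.00676 and 0.0216). Plin2, the main lipid droplet coat protein, averaged 475 ± 156 CPM in DDC+HFD and 528 ± 70 CPM in Control 28D livers and was not called (adjusted p = 0.558).

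Glucose handling genes split evenly, with 5 of 21 higher and 5 lower. Ppargc1a, the coactivator that drives mitochondrial and gluconeogenic genes, had a lowest, median and highest level of 13.2, 15.3 and 22.3 CPM in DDC+HFD livers, against 9.23, 6.48, 9.96, 9.75 and 8.90 CPM in Control 28D livers. It exceeded Control 28D, HFD and DDC+Cont by 0.93, 1.08 and 1.00 log2 units (adjusted p = 0.0018, 3.69e-04 and 0.00671). Igfbp1, an insulin-suppressed binding protein for insulin-like growth factors, was 147 to 417 CPM in DDC+HFD and 16.2 to 106 CPM in Control 28D livers (2.53 log2 units, adjusted p = 0.0146). Ppp1r3c, a subunit that brings phosphatase to glycogen and promotes its synthesis, was among the largest decreases. It had a lowest, median and highest level of 33.5, 71.4 and 78.6 CPM in DDC+HFD livers, against 313, 278, 272, 238 and 238 CPM in Control 28D livers, with DDC+Cont at 161 to 218 and HFD at 109 to 257 CPM. Ppp1r3c was lower than Control 28D, HFD and DDC+Cont by log2 fold changes of -2.11, -1.65 and -1.59 (adjusted p = 1.28e-05, 2.44e-04 and 0.00267). Pck1 was 1084 to 4134 CPM in DDC+HFD and 470 to 3320 CPM in Control 28D livers and was not called (adjusted p = 0.0683).

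Nitrogen and periportal metabolism genes were lower. Of 25 genes of amino acid, urea and one-carbon metabolism, 12 were lower and 1 higher, with a median log2 fold change of -0.34. Of 15 periportal genes 8 were lower and 1 higher. Both lists hold Cps1, Ass1, Asl, Arg1 and Sds, so their counts are not independent. Ass1 was counted at only 1.52 to 7.42 CPM in DDC+HFD and 2.73 to 54.5 CPM in Control 28D livers. Why so few of its reads were counted was not tested, so its values are uncertain. Cps1, the carbamoyl phosphate synthetase that opens the urea cycle, stood at 4704, 5509 and 5919 CPM (lowest, median and highest) in DDC+HFD livers, against 8563, 7391, 8856, 8551 and 8187 CPM in Control 28D livers. The groups did not overlap (log2 fold change -0.61, SE 0.09, adjusted p = 2.01e-05). HFD livers held 5193 to 5875 CPM and DDC+Cont livers 6433 to 8669 CPM. DDC+HFD was below DDC+Cont (-0.45, adjusted p = 0.00573), and its difference from HFD was -0.02 (SE 0.09, adjusted p = 0.925). Asl, argininosuccinate lyase of the same cycle, fell by 0.81 log2 units and Hal, the first enzyme of histidine breakdown, fell by 0.93 (adjusted p = 5.98e-05 and 4.43e-04). Bhmt, which remethylates homocysteine, averaged 2980 ± 614 CPM in DDC+HFD and 6542 ± 1329 CPM in Control 28D livers (adjusted p = 0.00261).

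Some hepatocyte identity genes fell. Of 20 such genes, 7 were lower and none higher (median -0.20), and Alb did not pass the test (log2 fold change -0.21, adjusted p = 0.557). This list shares Cps1, Ass1 and Tat with the amino acid list. Ttr, transthyretin, averaged 2991 ± 592 CPM in DDC+HFD and 4751 ± 462 CPM in Control 28D livers (adjusted p = 1.59e-04). Among 15 pericentral genes 4 were lower and 1, Cyp2c29, higher. The Wnt-responsive Axin2 and the pericentral transcription factor Tbx3 fell by 0.98 and 1.17 log2 units (adjusted p = 0.00145 and 0.00123). Cyp2e1, the ethanol-oxidising P450 of the same zone, was not called, at 4998 ± 1072 CPM in DDC+HFD and 4712 ± 1180 CPM in Control 28D livers (adjusted p = 0.816).

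Most male-biased liver genes fell, and some female-biased ones rose. In mice, the timing of growth hormone pulses keeps many hepatocyte genes at different levels in males and females, and all of these animals were male. Of 18 male-biased genes 13 were lower and none higher (median log2 fold change -1.81). Of 12 female-biased genes 6 were higher and none lower (median 1.895). That count was 3 without DDC+HFD replicate 32 or Control 28D replicate 11, 4 without Control 28D replicate 10 or 12, and 3 with the lane or the clock score as a term. The summed male-biased level was 13520, 5868, 10130, 11680, 13560 and 11280 CPM in DDC+HFD replicates 30, 32, 33, 35, 36 and 37, against 16690 to 21820 CPM in Control 28D livers, with no overlap. The female-biased sum was 51.8 to 283 CPM in DDC+HFD and 14.8 to 26.5 CPM in Control 28D livers, and replicate 32 held the extreme value of both sums.

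Moxd1, a monooxygenase-like protein, had the largest decrease of the named genes. It stood at 3.16, 0.376, 12.9, 5.41, 0.552 and 19.3 CPM in DDC+HFD replicates 30, 32, 33, 35, 36 and 37, against 128, 404, 224, 76.3 and 131 CPM in Control 28D livers (log2 fold change -4.74, SE 0.85, adjusted p = 2.03e-04). It also varied widely in DDC+Cont (0.219 to 31.6 CPM) and HFD livers (1.69 to 72.5 CPM). Hsd3b5, a male-specific 3-ketosteroid reductase, was 0.676 to 82.1 CPM in DDC+HFD and 135 to 252 CPM in Control 28D livers (log2 fold change -2.97, adjusted p = 7.06e-04). In a fit of only the groups compared its call was lost (adjusted p = 0.0675). Cyp7b1, the oxysterol hydroxylase of the alternative bile acid route, fell by 1.77 log2 units (adjusted p = 4.11e-05), and Cyp2u1, a fatty acid hydroxylase, fell by 2.22 (adjusted p = 6.42e-06). Trhde, the ectoenzyme that degrades thyrotropin-releasing hormone, followed the DDC history: 0.301 to 2.71 CPM in DDC+HFD, 0.482 to 1.66 in DDC+Cont, 5.21 to 8.09 in HFD and 2.73 to 7.38 CPM in Control 28D livers. Cyp4a12a and Cyp4a12b, male-biased fatty acid hydroxylases, averaged 31.5 ± 26.2 and 7.91 ± 7.77 CPM in DDC+HFD livers, against 132 ± 31 and 46.0 ± 9.9 CPM in Control 28D livers; they are near-identical copies. On the female-biased side, Sult3a1, a sulfotransferase, was 33.2 CPM in DDC+HFD replicate 32 and 0.552 to 1.40 CPM in the other 5, against 0.0 to 0.369 CPM in Control 28D livers, and without replicate 32 it was not called (adjusted p = 0.261). Abcd2, a peroxisomal fatty acid transporter, was 17.3 to 74.8 CPM in DDC+HFD and 3.91 to 11.7 CPM in Control 28D livers and rose by 2.08 log2 units (adjusted p = 2.65e-04), a call that held in all 22 other fits.

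Clock genes differed between the groups, and the libraries differed among themselves. The clock is a feedback loop in which Arntl and Clock or Npas2 turn on Per, Cry and Nr1d genes, whose products then shut them off, so levels depend on the hour of sampling, which the labels do not give. Of 19 clock genes 4 were higher and 4 lower. Per1, a repressor of the loop that also responds directly to glucocorticoids and feeding, carries the E-box CACGTG, the letters that Arntl and Clock bind. It is shown in capitals in the first of 2 RefSeq windows of the gene (GRCm38.p6, plus strand, chr11:69098699-69098947).
Per1: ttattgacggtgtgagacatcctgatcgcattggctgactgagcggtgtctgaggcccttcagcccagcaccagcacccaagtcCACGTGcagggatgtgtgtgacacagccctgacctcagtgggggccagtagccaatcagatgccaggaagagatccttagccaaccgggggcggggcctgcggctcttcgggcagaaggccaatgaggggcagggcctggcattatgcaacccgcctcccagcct
The E-box was found in 6.02% of all windows, the second Per1 window and that of Nr1d2 held none, and that of Cry1 held 1. Per1 had a lowest, median and highest level of 7.59, 10.6 and 23.5 CPM in DDC+HFD livers, against 2.89, 2.47, 2.31, 6.84 and 3.95 CPM in Control 28D livers. The groups did not overlap, although Control 28D replicate 12 came close (log2 fold change 1.71, SE 0.40, adjusted p = 0.00301). Per1 also exceeded DDC+Cont (1.80, adjusted p = 0.0104). Nr1d2, the heme-sensing repressor Rev-erb beta, averaged 65.8 ± 25.2 CPM in DDC+HFD, 21.9 ± 3.5 in DDC+Cont, 43.8 ± 13.8 in HFD and 23.4 ± 9.3 CPM in Control 28D livers (adjusted p = 7.83e-05 against Control 28D). Cry1, the last repressor of the loop to peak, averaged 15.0 ± 4.0 CPM in DDC+HFD and 28.6 ± 4.4 CPM in Control 28D livers (adjusted p = 0.00315). Dbp, a clock output factor, was 9.24 and 9.99 CPM in DDC+HFD replicates 32 and 37 and 0.734 to 3.48 CPM in the other 4, against 0.514 to 0.984 CPM in Control 28D livers, and its call was lost in 14 of 22 other fits. With the clock score as a term, 1571 genes were higher and 1254 lower over all tested genes. Of these, 1349 and 978 were also called in the fit without it, which had 1568 higher and 1202 lower. The score is itself made of clock genes in the same libraries.

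Several of the largest increases are not members of these lists. Ntrk2, the receptor for brain-derived neurotrophic factor (mm10 chr13:58806569-59133970), had a lowest, median and highest level of 3.92, 9.48 and 24.1 CPM in DDC+HFD livers, against 0.923, 0.411, 0.868, 1.09 and 0.431 CPM in Control 28D livers (log2 fold change 3.80, SE 0.46, adjusted p = 1.04e-06). DDC+Cont livers held 10.3 to 34.8 CPM and HFD livers 0.172 to 1.18 CPM. Lrtm2, a leucine-rich repeat membrane protein, and Sytl5, a regulator of vesicle transport, were also high in both DDC groups. Lrtm2 was 2.32 to 17.2 CPM in DDC+HFD, 5.72 to 21.9 in DDC+Cont, 0.0 to 0.315 in HFD and 0.182 to 1.33 CPM in Control 28D livers. Sytl5 was 6.19 to 31.0 CPM in DDC+HFD, 4.98 to 16.7 in DDC+Cont, 1.04 to 2.58 in HFD and 1.03 to 3.73 CPM in Control 28D livers. Rad51b, a DNA repair gene of homologous recombination, was higher in DDC+HFD livers than in every other group compared. It had a lowest, median and highest level of 3.61, 6.92 and 11.1 CPM in DDC+HFD livers, against 0.615, 1.44, 0.984, 1.46 and 1.22 CPM in Control 28D livers (log2 fold change 2.69, SE 0.31, adjusted p = 3.74e-07), with differences of 1.24 from HFD and 1.90 from DDC+Cont (adjusted p = 0.00142 and 1.27e-04).

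Tff2, a secreted trefoil peptide of mucosal epithelia, had the largest fold of the named genes outside the pancreas list. It stood at 19.0, 0.601, 6.76, 45.1, 3.04 and 0.993 CPM in DDC+HFD replicates 30, 32, 33, 35, 36 and 37, against 0.0 to 0.182 CPM in Control 28D livers (log2 fold change 7.05, SE 1.82, adjusted p = 0.00633). Replicate 35, the highest, had 1.33 CPM of pancreatic transcripts. In the DDC+Cont and HFD groups the highest Tff2 levels were in the libraries richest in them: 7.56 CPM in DDC+Cont replicate 24 and 20.5 CPM in HFD replicate 14, with pancreatic sums of 2940 and 6155 CPM. Spink1, a trypsin inhibitor of pancreas and injured liver, was 1.38 to 8.94 CPM in DDC+HFD and 0.103 to 0.365 CPM in Control 28D livers (adjusted p = 0.0079). Its 2 highest libraries, replicates 32 and 30, had 3.23 and 5975 CPM of pancreatic transcripts. Spink1 was also highest in DDC+Cont replicate 24 (5.63 CPM) and HFD replicate 14 (10.8 CPM). Tff2 kept its call in all 22 other fits, and Spink1 lost it only in the lanes that both groups share (edgeR adjusted p = 0.0904). Among those fits were 1 with pancreatic CPM as a term and 1 without the libraries over 1000 CPM of pancreatic transcripts. The part of pancreatic RNA in either gene was not tested beyond them. The organic anion transporter genes Slc22a26 and Slc22a27 rose by 3.80 and 3.03 log2 units (adjusted p = 9.20e-04 and 5.58e-04), and both were highest in replicate 32.

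Etnppl, Srgap3, Nat8f5 and C4a were also among the largest decreases. Etnppl, which breaks down phosphoethanolamine, had a lowest, median and highest level of 9.65, 21.9 and 35.5 CPM in DDC+HFD livers, against 99.9, 101, 106, 107 and 122 CPM in Control 28D livers (log2 fold change -2.27, SE 0.38, adjusted p = 9.16e-05). Srgap3, a regulator of small GTPases, averaged 1.36 ± 0.48 CPM in DDC+HFD and 8.11 ± 2.82 CPM in Control 28D livers, and Nat8f5, an N-acetyltransferase family member, 4.04 ± 1.29 and 26.0 ± 6.9 CPM in DDC+HFD and Control 28D livers. Both were also below HFD and below DDC+Cont (adjusted p = 0.00134 and 0.0111 for Srgap3, 0.00177 and 0.0443 for Nat8f5). C4a, a complement component 4 gene with a near-identical neighbour, averaged 33.4 ± 9.6 CPM in DDC+HFD and 164 ± 37 CPM in Control 28D livers (adjusted p = 1.51e-05).

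Genes of the pathways that DDC is known to engage were counted by list. Of 14 heme synthesis and breakdown genes 2 were lower and none higher. Fech, ferrochelatase, the step that DDC blocks, averaged 139 ± 19 CPM in DDC+HFD and 142 ± 12 CPM in Control 28D livers (adjusted p = 0.816), and Alas1, the rate-limiting step, 482 ± 147 and 226 ± 84 CPM in DDC+HFD and Control 28D livers (adjusted p = 0.059). Of 25 NRF2 targets 4 were lower and 1 higher; Nqo1, the quinone reductase, was not called (9.50 ± 2.48 and 8.35 ± 1.08 CPM in DDC+HFD and Control 28D livers), and Gstp1, a glutathione transferase that is also male-biased, fell by 1.18 log2 units (adjusted p = 1.54e-05). The keratins of DDC-induced aggregates, Krt8 and Krt18, averaged 239 ± 46 and 237 ± 51 CPM in DDC+HFD livers, against 234 ± 25 and 196 ± 27 CPM in Control 28D livers, and neither was called. Of 15 bile acid synthesis genes 3 were lower, and Cyp7a1, the rate-limiting enzyme, was not called (144 ± 69 and 184 ± 54 CPM in DDC+HFD and Control 28D livers, adjusted p = 0.641). Of 28 cell cycle genes 1 was higher, and of 16 interferon genes 1 was higher and 1 lower. In the integrated stress response list of 20, Chac1, a glutathione-degrading enzyme, rose by 2.50 log2 units (adjusted p = 1.12e-04) and Atf4, the transcription factor upstream of it, fell by 0.46 (adjusted p = 0.0102). Without the libraries over 1000 CPM of pancreatic transcripts Atf4 was not called (adjusted p = 0.184).

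Setting DDC+HFD against each single treatment shows where it differs from either. Against HFD, 1143 genes were higher in DDC+HFD livers (7.96%) and 788 lower (5.49%). Against DDC+Cont, 268 were higher (1.87%) and 220 lower (1.53%), and that count ran from 167 to 715 in all when single libraries were left out. Gpnmb, Trem2, Cx3cr1, Thbs2, Col6a3, Lum, Pdgfra, Pdgfrb and Cygb differed from HFD and not detectably from DDC+Cont, whereas Cyp2b10, Cyp2c29 and Cps1 differed from DDC+Cont and not detectably from HFD. Rad51b, Il1rn, Mpo, Ppargc1a, Ppp1r3c, Srgap3 and Slc30a10 differed from both. HFD and DDC+Cont were each also set against the same 5 Control 28D libraries, so those folds share their controls: 31 genes were higher and 23 lower in HFD, and 177 higher and 41 lower in DDC+Cont.

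Whether the joint difference departs from the sum of the single differences on the log2 scale was tested as an interaction in the same fit. No gene was called by edgeR (0.0% of 14355, smallest adjusted p = 0.21), 1087 genes had an unadjusted p under 0.05, and DESeq2 called 2. For Cyp2c55 the departure was not called, so the lower level in DDC+HFD than in HFD livers is not shown to be more than the sum of both effects. For Mpo and Ppp1r3c, likewise, a difference from each single treatment is not by itself a departure from additivity.

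**Figure D4:**
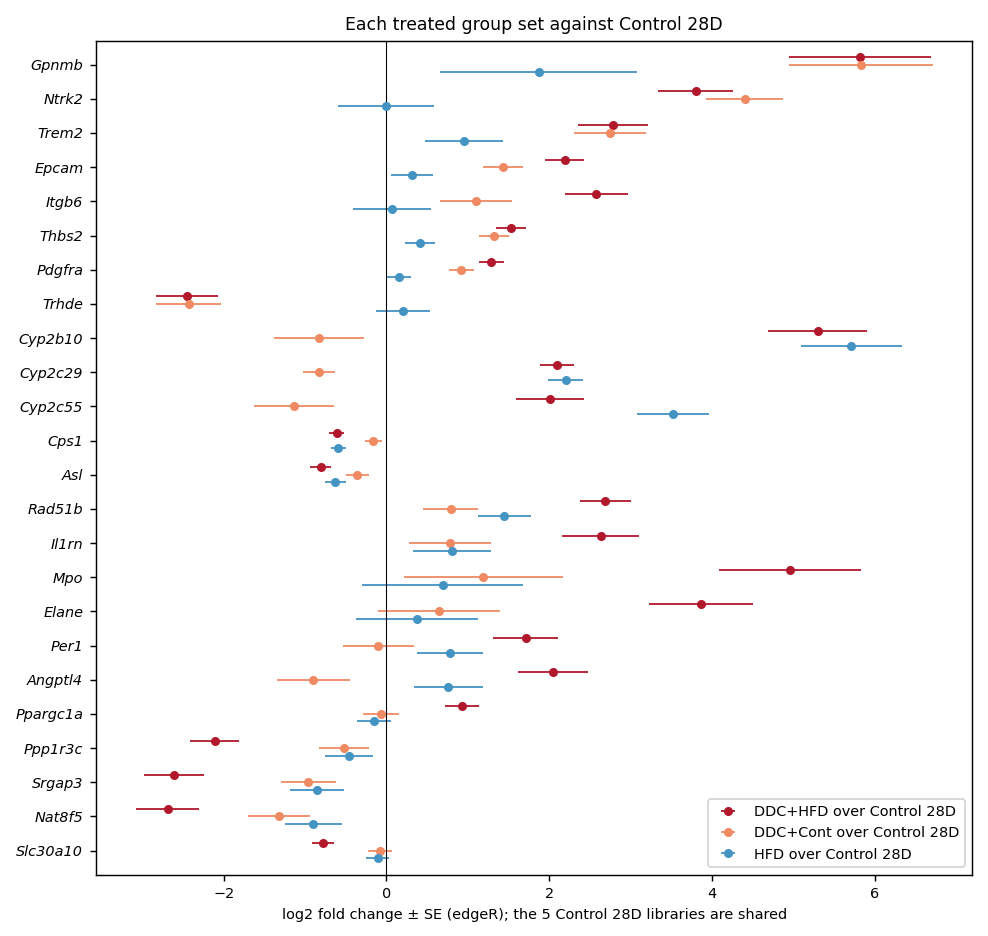
Log2 fold change over Control 28D of DDC+HFD, DDC+Cont and HFD livers for 24 genes, with points for the edgeR estimate and bars for 1 SE; all comparisons share the 5 control libraries. Gpnmb and Ntrk2 lie together for DDC+HFD and DDC+Cont, Cyp2b10 and Cyp2c29 for DDC+HFD and HFD, and Mpo, Ppp1r3c and Slc30a10 lie farther from 0 in DDC+HFD than in either.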

How the data were processed

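Libraries were made from total liver RNA with a TruSeq mRNA kit, per the labels' protocols. The deposited files hold raw read counts per gene for each library, made by the authors. The submitters' processing notes name GSNAP, DESeq2 1.12.3 and the build mm10, without their roles. The counter, its strand setting and its annotation: not given in the sources used here. Antisense, overlapping and near-identical genes (Cyp2b, Cyp2c, Cyp4a12a and Cyp4a12b, C4a, Slc22a26 and Slc22a27, Saa) are uncertain.

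Summary lines that name no gene were dropped; they held the reads outside genes, and 45.4% of reads in DDC+HFD and 45.3% in Control 28D libraries lay on genes on average. Counts of all 8 groups were fitted together in edgeR 4.0.16 (R 4.3.3, limma 3.58.1) with TMM factors, its filter on low counts by group and the robust quasi-likelihood test, which kept 14355 of 24499 genes. The contrasts were DDC+HFD against Control 28D, HFD and DDC+Cont, and the departure from additivity. Calls are at a Benjamini-Hochberg adjusted p under 0.05, and every adjusted p is from edgeR unless said otherwise. Library measures were compared by exact permutation tests. The pipeline was tested on simulated data. No library pair of a group looked like a repeat of a single library: replicates differed by at least 9.05 times the counting noise over 25 pairs.

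The genes named come from a rule: the 15 largest increases and decreases with adjusted p under 0.05, 5 CPM or more on average in whichever group was higher, and no overlap, passing over predicted genes, clones and Mup genes (17 larger changes were passed over); up to 4 called members of each of 39 lists, with any called against the majority; and a panel of 58 genes. Not every gene that the rule names is reported here. Sox9, a list member outside that rule, was chosen after its value was seen. The members and lists were chosen with earlier results of these data known, and some genes, such as Spp1 and Cyp2b9, are in more than a single list. Gene positions are from GENCODE vM21 (mm10), and promoter windows from RefSeq, which held 139 of the 191 named genes. Alternatives were DESeq2 1.42.0, other size factors and filters, lane, pancreatic and clock terms, subsets of libraries, and each library left out in turn.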

Additional observations from a re-analysis of the deposited data

Results flagged for a closer look

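In 35 of 252 sets of values from 1 group, the highest or lowest library lay farther from the rest than Dixon's 95% limit allows. Chance flags about 1 in 20 sets of normally distributed values. CPM need not be normally distributed and the sets share the same libraries, so the 35 cannot be read against that rate. Of the 35, 12 were in DDC+HFD replicate 32 and 13 in Control 28D replicate 12, so most of them come from those 2 animals.

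DDC+HFD replicate 32 was the highest of its group for lipid synthesis genes. It had 3375 CPM of Fasn (the others 646 to 797), 1049 CPM of Acly (322 to 415), 425 CPM of Acaca (219 to 283) and 475 CPM of the lipogenic regulator Srebf1 (144 to 236). It was also the highest for Sult3a1 at 33.2 CPM, Slc22a26 at 78.5 CPM, Slc22a27 at 23 CPM, Abcd2 at 74.8 CPM, Sytl5 at 31 CPM, Pls1 at 13.3 CPM and Trem2 at 4.73 CPM. For Chac1 it was the lowest, at 1.43 CPM (6.67 to 9.66).

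Control 28D replicate 12 was the lowest control for Fasn at 630 CPM (3428 to 4195) and Srebf1 at 210 CPM (480 to 566). It was the highest for Pck1 at 3320 CPM, Cyp3a11 at 5502 CPM, Angptl4 at 54 CPM, Lcn2 at 493 CPM, S100a9 at 19.4 CPM, Elane at 1 CPM, Mt1 at 99.2 CPM, Mt2 at 47.3 CPM and Slc22a26 at 4.1 CPM. Its pancreatic transcripts summed to 14.1 CPM (1.22 to 2.49), with 1.64 CPM of the pancreatic lipase gene Pnlip.

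The other flagged libraries were spread over the groups. DDC+HFD replicate 30 was the highest for Trhde at 2.71 CPM and for the melanin enzyme gene Dct at 3.74 CPM. DDC+HFD replicate 33 was the highest for Elane at 17.8 CPM and the lowest for Cps1 at 4704 CPM. DDC+HFD replicate 36 was the highest for Cygb at 14.1 CPM and Per1 at 23.5 CPM. DDC+HFD replicate 37 had 114 CPM of Nr1d2 (44.3 to 66.5) and the lowest TMM factor, 0.897. Control 28D replicate 10 was the lowest for Postn at 11.2 CPM, and Control 28D replicate 13 for the apolipoprotein gene Apoa4 at 76.1 CPM.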

How the results depend on the processing

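For DDC+HFD against Control 28D, no called gene described or considered for the text changed direction in any alternative. Over all tested genes, none that was called in both the fit above and an alternative had opposite directions. Genes that lost their call could still change sign. With pancreatic CPM as a term, the pancreas and fat list had a median log2 fold change of -0.07, against 8.56 in the fit above. Of 104 called genes described or considered for the text, 68 kept their call in all 22 alternatives, 36 lost it in at least 1, and 10 of those only in the lanes that both groups share. Fitted with only the groups compared, DDC+HFD against Control 28D gave 1045 higher and 649 lower genes (1694 in all), and in the shared lanes 526 and 302 (828 in all). These fits hold fewer libraries. Leaving out single libraries gave 1113 to 1613 higher, 737 to 1261 lower and 1850 to 2874 in all. Against HFD, the shared lanes gave 444 genes, and single libraries left out gave 1213 (without HFD replicate 15) to 2174. Against DDC+Cont, 488 genes were called in all, 299 with lane as a term, 101 with only the groups compared and 15 in the shared lanes. Single libraries left out gave 167 (without DDC+Cont replicate 25) to 715 (without DDC+HFD replicate 30), with 225 on leaving out DDC+HFD replicate 33, and 301 or 288 on leaving out replicate 24 or 28 of DDC+Cont. The cause was not tested. For the departure from additivity DESeq2 called 2 genes, and edgeR called 0 with any single library left out. Only 7 of the 39 list counts stayed within 1.5 times in every alternative. No paired analysis was possible because no replicate number is shared between the groups. Genes with few control reads, such as Tff2 and Sult3a1, have imprecise folds.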
